A study of Mus musculus with 10 samples.

Results

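Secretory airway cell genes were followed in whole lungs of mice with increased pulmonary flow (IPF) and of sham-operated mice. The 6 genes Scgb1a1, Scgb3a1, Scgb3a2, Bpifa1, Muc5b and Cyp2f2 were taken by gene name from a table of 54532 genes, and all 6 were found in it. Wild-type C57BL/6J mice (the study used pups of both sexes) were operated on at P7 and their lungs were collected at P30, with 5 lungs in each group. In the IPF group the abdominal aorta was punctured through into the inferior vena cava (an aortocaval fistula), and in the sham group the same vessels were exposed and left intact. Both groups had the same anesthesia, laparotomy and housing. mRNA of the whole lung was sequenced, so airway and alveolar tissue were read together, and the authors deposited FPKM values, which correct for the length of a gene and the depth of a library. The number of reads on genes, recovered from these values, was 15483046 to 19026843 per lung. The sample records do not say which litter or cage each lung came from, and p-values measure only the spread between these lungs.

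The conducting airways of the mouse are lined by ciliated cells, which move the mucus, and by secretory cells, chiefly club cells, which make the proteins of the airway fluid. Secretoglobins are small secreted proteins of this fluid, and Scgb1a1 (uteroglobin, also called CCSP) is the classical marker of the club cell. Bpifa1 (SPLUNC1) is a secreted defense protein, mainly of the larger airways, Muc5b is a gel-forming mucin, and Cyp2f2 is a cytochrome P450 of club cells that oxidizes foreign compounds such as naphthalene. Club cells also renew the airway lining after injury.

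Some facts about the lungs stand beside every result. Xist was at 26.8 to 43.2 FPKM in the IPF lungs and at 0.0301 to 0.0767 FPKM in the sham lungs, while Ddx3y on the Y chromosome was at 14.3 to 21.4 FPKM in the sham lungs and had no read in any IPF lung. Sex and operation therefore cannot be told apart in these samples. Of 12 circadian clock genes, 3 rose and 8 fell in the IPF group (limma, adjusted p below 0.05), with Dbp at 1.74 to 3.49 FPKM against 23.2 to 29.3 FPKM. The part of the clock in the results on secretory genes was not tested. IPF replicate 3 stood apart in its ciliated cell genes. The mean of 19 ciliated cell genes lay 1.06 above its average over all lungs on the log2 scale there, against -0.58 to -0.22 in the other IPF lungs and -0.32 to 0.41 in the sham lungs. The mean of 7 basal cell genes was not high in that lung, at -0.29. Sham replicate 1 had the lowest mean Spearman correlation with the other lungs, 0.957 across the genes tested, where the others had 0.963 to 0.968.

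Promoter sequences are shown for the members that RefSeq's table for GRCm38.p6 held, to let the start sites of co-measured airway genes be compared. It matched 3 of 6 members, Cyp2f2, Scgb3a1 and Bpifa1, but not Scgb1a1, Scgb3a2 or Muc5b. Each sequence runs from 250 bases before to 50 bases after the start site, on the plus strand, and capitals mark matches, on either strand, to the motifs described after them. The RefSeq start lay 46 bases from the start of the gene in the authors' positions for Cyp2f2, 15 for Scgb3a1 and 0 for Bpifa1.
Cyp2f2 (chr7:27119705-27120004): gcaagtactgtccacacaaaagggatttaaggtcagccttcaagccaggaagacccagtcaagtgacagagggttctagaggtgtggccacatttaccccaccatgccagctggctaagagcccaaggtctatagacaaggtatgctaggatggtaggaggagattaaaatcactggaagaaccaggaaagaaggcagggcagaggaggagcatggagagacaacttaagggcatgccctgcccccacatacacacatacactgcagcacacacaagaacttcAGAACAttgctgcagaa
Scgb3a1 (chr11:49663345-49663644): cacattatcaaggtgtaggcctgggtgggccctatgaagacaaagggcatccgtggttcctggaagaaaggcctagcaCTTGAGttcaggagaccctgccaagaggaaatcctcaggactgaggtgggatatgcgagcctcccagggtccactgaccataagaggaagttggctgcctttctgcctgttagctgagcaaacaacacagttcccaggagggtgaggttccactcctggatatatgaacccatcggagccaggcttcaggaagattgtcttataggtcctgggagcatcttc
Bpifa1 (chr2:154142630-154142929): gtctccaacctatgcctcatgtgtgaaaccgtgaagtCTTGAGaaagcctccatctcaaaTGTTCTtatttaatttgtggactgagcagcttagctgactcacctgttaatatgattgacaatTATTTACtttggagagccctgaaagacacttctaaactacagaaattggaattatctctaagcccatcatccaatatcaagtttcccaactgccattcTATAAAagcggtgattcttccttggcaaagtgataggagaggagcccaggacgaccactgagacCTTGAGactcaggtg
The motifs searched were the TATA box (TATAAA), the forkhead core of FOXA1 and FOXA2 (TATTTAC or TGTTTAC), a short site of the lung factor NKX2-1 (CTCAAG), a C/EBP site (TTGCNNAA) and a short site of the glucocorticoid receptor (TGTTCT). The TATA box was found in Bpifa1 alone among the 3 promoters, 29 bases before the start, and in 13.6% of all 32851 promoters in the table. CTCAAG was found in Scgb3a1 and in Bpifa1, and in 15.9% of all promoters. TATTTAC was found in Bpifa1 and in 3.0% of all promoters. TGTTCT was found in Bpifa1 and Cyp2f2 and in 19.0% of all promoters, and neither TGTTTAC nor TTGCNNAA was found in the 3 windows. The TGTTCT match of Cyp2f2 lay 33 bases after the start, and a CTCAAG match of Bpifa1 lay 35 bases after it. These matches are letters in a short window and say nothing about binding in these lungs.

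Scgb1a1 (ENSMUSG00000024653, chromosome 19 of GRCm38, 9083636 to 9087958, minus strand) was among the 5 genes with the highest FPKM in each of the 10 lungs. It was at 3285, 4791, 25938, 4328 and 12863 FPKM in IPF replicates 1 to 5, and at 14072, 18825, 16858, 22154 and 11078 FPKM in sham replicates 1 to 5. IPF replicates 1, 2 and 4 lay below all sham lungs, IPF replicate 3 above all of them and IPF replicate 5 among them. The median of the IPF group was 0.284 times that of the sham group, but the groups overlapped, with means of 10241 ± 9570 FPKM and 16597 ± 4264 FPKM (SD, n = 5 each). On log2(FPKM + 0.1) the change was -1.12 (standard error 0.57, limma adjusted p = 0.317), and its 95% interval ran from 0.193 to 1.10 times the sham level. An exact two-sided permutation test gave p = 0.119, so the difference did not exceed the spread between lungs. In bulk lung, fewer secretory cells and less RNA per cell cannot be told apart.

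Scgb3a2 (ENSMUSG00000038791, chromosome 18) encodes another secretoglobin of club cells and lies on the other side of 0. It was at 263, 461, 716, 368 and 123 FPKM in IPF replicates 1 to 5 and at 144, 260, 221, 362 and 194 FPKM in sham replicates 1 to 5. IPF replicates 2, 3 and 4 exceeded all sham lungs, and IPF replicate 5 was the lowest of all 10 lungs. The log2 fold change was 0.55 (standard error 0.41), with an adjusted p of 0.508 from limma and p = 0.262 from the two-sided exact permutation test. It was 0.27 without IPF replicate 3 and 0.91 without IPF replicate 5. IPF replicates 2 and 4 thus combined some of the lowest Scgb1a1 levels with some of the highest Scgb3a2 levels. In FPKM, Scgb3a2 ranked above Cyp2f2 in IPF replicates 1, 2 and 4 and below it in the other 7 lungs.

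Scgb3a1 (ENSMUSG00000064057, chromosome 11, 49663610 to 49665118), a secretoglobin of the larger airways, was far less abundant per length than Scgb1a1, with 15 to 95 reads per lung. It was at 1.47, 3.01, 8.31, 3.40 and 8.98 FPKM in the IPF lungs and at 3.35, 4.10, 2.40, 4.72 and 4.06 FPKM in the sham lungs. IPF replicates 3 and 5 stood above all sham lungs and IPF replicate 1 below all of them. The log2 fold change was 0.17 (standard error 0.43, limma adjusted p = 0.876), and it changed sign without IPF replicate 3 (-0.08) or without IPF replicate 5 (-0.11).

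Cyp2f2 (ENSMUSG00000052974, chromosome 7, 27119909 to 27133660) was at 164, 226, 801, 202 and 258 FPKM in the IPF lungs and at 357, 401, 392, 475 and 254 FPKM in the sham lungs. As with Scgb1a1, IPF replicates 1, 2 and 4 lay below all sham lungs and IPF replicate 3 above all of them. The log2 fold change was -0.43 (standard error 0.37), with an adjusted p of 0.579 from limma and p = 0.357 from the two-sided exact permutation test. Single lungs moved this value in both directions. Without IPF replicate 1 the log2 fold change was -0.24 (adjusted p = 0.787, limma). Without IPF replicate 3, the lung with the high ciliated cell genes, the log2 fold change of Cyp2f2 was -0.81 with a limma adjusted p of 0.0308, and that of Scgb1a1 was -1.57 with a limma adjusted p of 0.0746. Nothing in the labels sets this lung apart, so its omission is a description.

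Bpifa1 (ENSMUSG00000027483, chromosome 2, 154142880 to 154149219) was scarce in all lungs, with 1 to 37 reads. It was at 0.0380, 0.0777, 0.548, 1.31 and 0.951 FPKM in the IPF lungs and at 0.314, 0.289, 0.202, 0.350 and 0.297 FPKM in the sham lungs. No IPF lung fell within the sham range: IPF replicates 1 and 2, with 1 and 2 reads, lay below it and IPF replicates 3, 4 and 5 above it. The log2 fold change of 0.29 (standard error 0.60, limma adjusted p = 0.845) therefore averaged opposite departures, and it was -0.11 without IPF replicate 4.

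Muc5b (ENSMUSG00000066108, chromosome 7, 141839070 to 141873084) passed the filter on low values (a mean of at least 0.1 FPKM) only through IPF replicate 3. This lung held 136 reads of Muc5b, or 0.481 FPKM, and the other IPF lungs were at 0.020 to 0.0550 FPKM, with 5 to 15 reads. The sham lungs were at 0.154, 0.104, 0.179, 0.0923 and 0.0263 FPKM. Its log2 fold change was -0.19 (standard error 0.47, limma adjusted p = 0.869), on a scale where the added 0.1 FPKM is as large as the values themselves, and it was -0.64 with 0.01 FPKM added and -0.73 by limma voom.

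**Figure D1:**
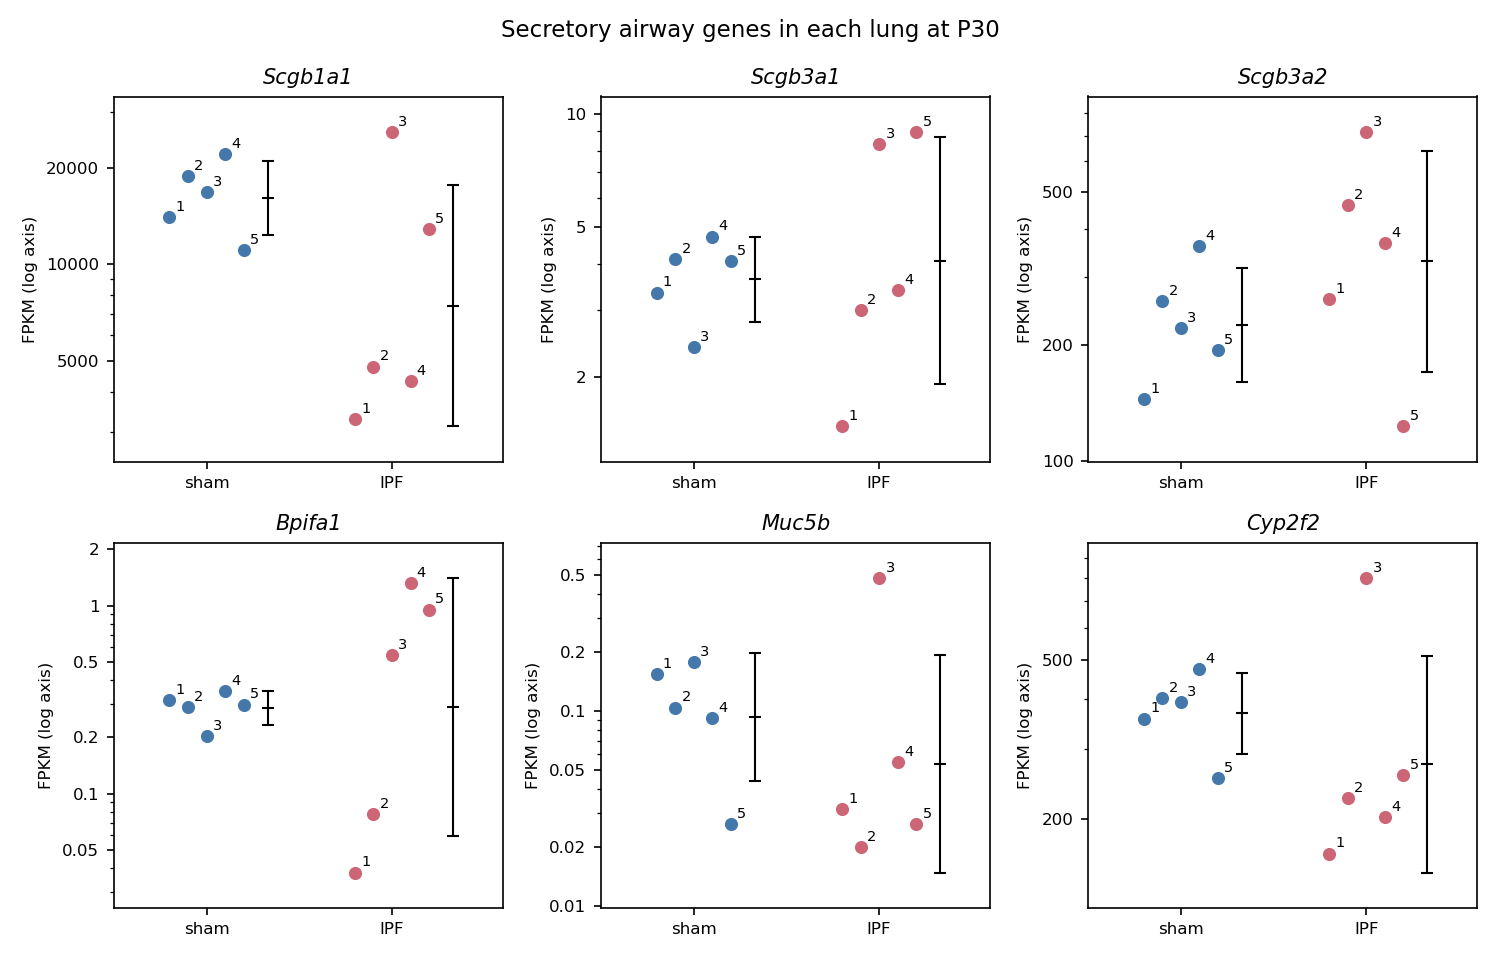
FPKM of the 6 genes in each lung on log axes, with the replicate number beside each point and the mean and SD of log2 FPKM of each group (n = 5) as bars. The IPF lungs spread to both sides of the sham lungs, for example from 3285 to 25938 FPKM for Scgb1a1 against 11078 to 22154 FPKM. For Muc5b this is not read as a result. Its upper end is the IPF replicate 3 value that took it past the filter, and its lower end is 5 reads against 6 in the lowest sham lung.

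Of the 6 members, 0 had a limma adjusted p under 0.05, where 5.85% of the 20448 genes tested did and 1.14% also passed an absolute log2 fold change of 1. None of the 6 had an unadjusted limma p under 0.05, where 19.5% of all genes tested did, and limma voom on the recovered reads called 0 of the 6 and 7.17% of all genes. The members split evenly, 3 above and 3 below 0, with a median log2 fold change of -0.01, and over all genes tested the median was 0.00. These intervals are wide: for Scgb3a2, changes from 0.784 to 2.73 times the sham level were within the 95% interval, and for Cyp2f2 from 0.426 to 1.30 times. Groups without overlap occurred in 7.29% of the genes tested and in none of the 6 members.

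**Figure D2:**
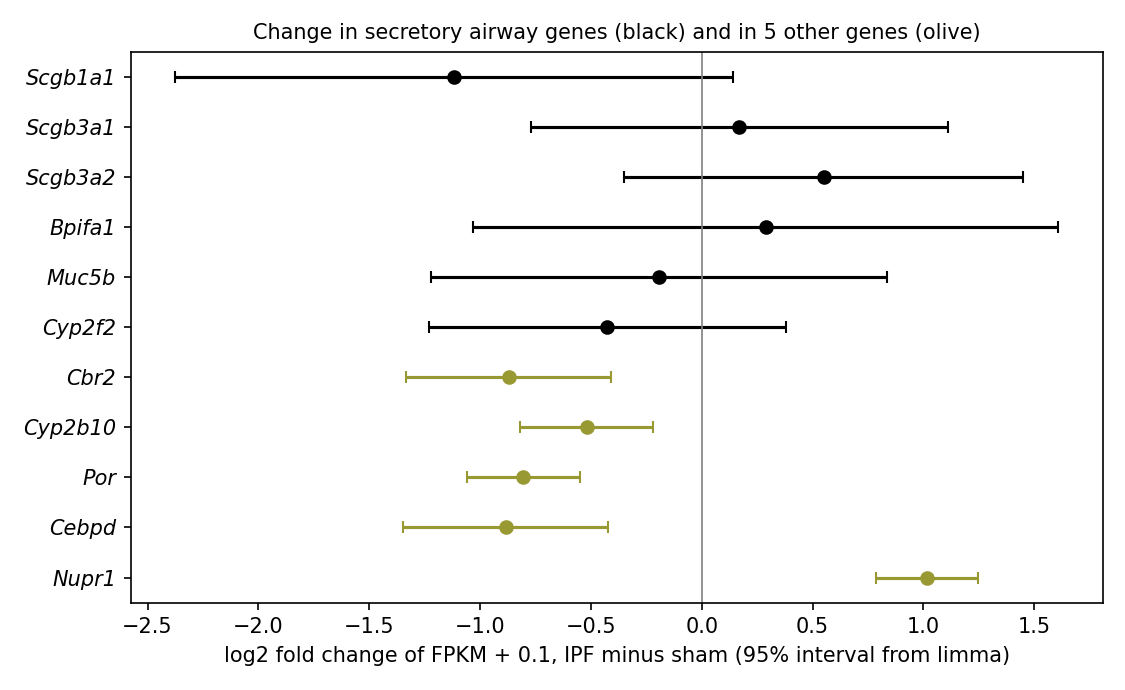
Log2 fold change of FPKM + 0.1 (IPF minus sham) with the 95% interval from limma, for the 6 members (black) and 5 other genes of the airway lists (olive). The intervals of the 6 members all include 0, and those of Cbr2, Cyp2b10, Por and Cebpd lie below it and that of Nupr1 above it.

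The IPF lungs differed from each other more than the sham lungs did. The SD of log2(FPKM + 0.1) was 1.25 in the IPF and 0.39 in the sham group for Scgb1a1, 1.06 and 0.37 for Scgb3a1, and 0.95 and 0.49 for Scgb3a2. It was 1.52 and 0.22 for Bpifa1, 0.96 and 0.44 for Muc5b, and 0.90 and 0.34 for Cyp2f2. Muc5b is left out of the counts that follow, since the same value of IPF replicate 3 that took it past the filter sets its SD and range. The SD was larger in the IPF group for 5 of the 5 other members, where it was for 51.1% of the genes tested. The IPF range extended beyond the sham range on both sides in 5 of these 5 and in 16.9% of the genes tested. The larger SD was not particular to the members or to airway genes. It was larger in the IPF group for 20 of 20 other secretory genes and 17 of 17 enzymes acting on foreign compounds on the lists described further on. The same held for 18 of 19 ciliated cell genes, 11 of 13 transcription regulators and 11 of 12 clock genes. It held for 6 of 11 alveolar type 2, 6 of 10 alveolar type 1, 4 of 9 mucus and goblet cell and 2 of 7 basal cell genes. This pattern was noticed in the data, was not tested, and rests in part on 1 lung. Without IPF replicate 3 the SD was larger in the IPF group for 4 of the 5 (Scgb1a1, Scgb3a1, Scgb3a2 and Bpifa1), and the IPF range enclosed the sham range for 3 of them, against 47.7% and 11.3% of the genes tested. For Cyp2f2 the IPF SD was then 0.28, below the 0.34 of the sham lungs.

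**Figure D3:**
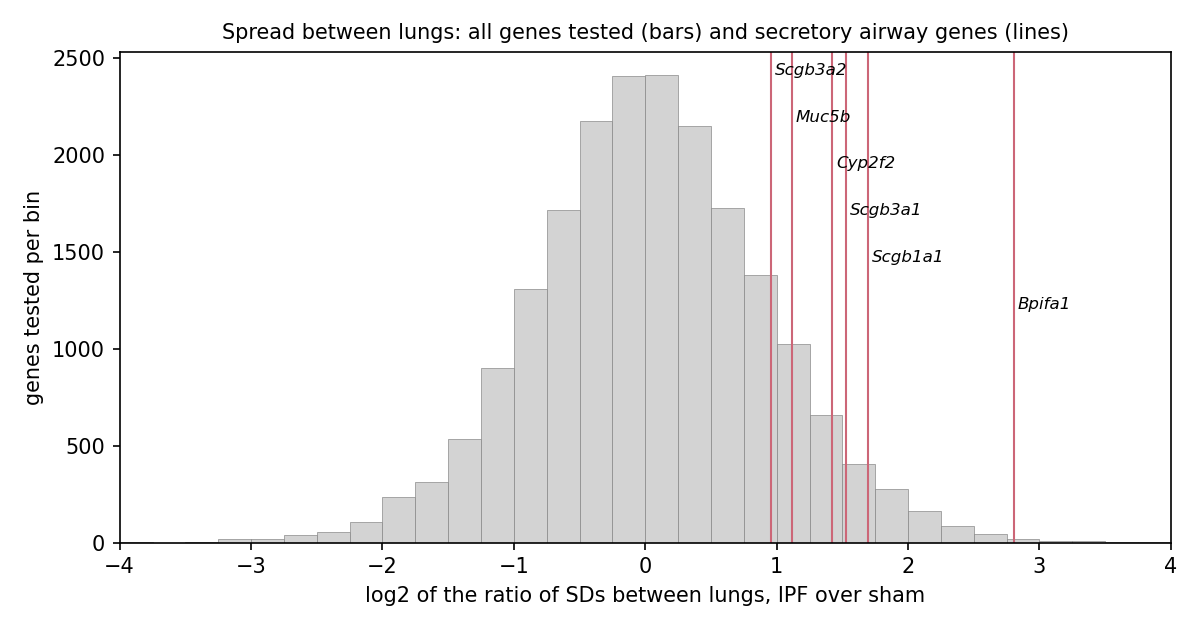
Log2 of the ratio of SDs between lungs (IPF over sham, on log2(FPKM + 0.1)) for all genes tested, as bars with the number of genes per bin, and for the 6 members, as lines. All 6 lines lie to the right of 0, from a ratio of 1.94 for Scgb3a2 to 7.00 for Bpifa1, and 13.7% of the genes tested had a ratio above 2. The line of Muc5b rests on IPF replicate 3, without which its SD was smaller in the IPF group (0.16 against 0.44).

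Whether the members changed alike was examined through the log2 ratio of each pair within each lung, 15 pairs in all, with 0.1 FPKM added to each gene. The log2 ratios of Scgb1a1 to Scgb3a1, Scgb3a2, Bpifa1, Muc5b and Cyp2f2 had differences (IPF minus sham) of -1.29, -1.67, -1.41, -0.92 and -0.69. The unadjusted two-sided p-values of exact permutation tests were 0.0159, 0.0556, 0.0397, 0.0556 and 0.0476, and after adjustment over the 15 pairs each was 0.167. Over all pairs, 3 had an unadjusted p under 0.05 and 0 an adjusted one, so that no pair of members was shown to differ in its change. The ratios to the scarce Bpifa1 and Muc5b move with the added value, which is as large as the level of Muc5b. With 0.01 FPKM added, the difference for Scgb1a1 to Muc5b was -0.48 (exact permutation p = 0.429), and for Scgb1a1 to Bpifa1 it was -1.20 with an unadjusted exact p of 0.238. Without IPF replicate 4 the difference for Scgb1a1 to Bpifa1 was -0.82.
The log2 ratio of Scgb1a1 to Scgb3a2 was 3.64, 3.38, 5.18, 3.55 and 6.71 in IPF replicates 1 to 5 and 6.60, 6.18, 6.25, 5.94 and 5.84 in the sham lungs. IPF replicates 1 to 4 lay below all sham lungs, and IPF replicate 5 lay above all of them. The 95% interval of the difference from the exact test was -2.91 to 0.05. For Scgb1a1 to Cyp2f2 the sham lungs were within 5.30 to 5.55, IPF replicates 1 to 4 were at 4.32, 4.41, 5.02 and 4.42, and IPF replicate 5 was at 5.64. Without IPF replicate 5, 4 pairs had an adjusted p of 0.0298 from exact permutation tests, each at the lowest unadjusted p that 4 against 5 lungs allow (0.00794). They were Scgb1a1 relative to Scgb3a2 (-2.22) and to Cyp2f2 (-0.91), Scgb3a2 relative to Cyp2f2 (1.31), and Scgb1a1 relative to Muc5b, which is not read further because most Muc5b levels lie near or below the added value. In the ratios of Scgb1a1 to Scgb3a2 and to Cyp2f2, IPF replicate 5 alone kept the groups overlapping, so its omission ended the overlap. Leaving out any other single lung gave 0 such pairs. Nothing in the labels sets IPF replicate 5 apart, so its omission is a description. IPF replicate 5 was also the IPF lung whose clock genes lay nearest the sham lungs, with Nr1d2 at 17.3 FPKM where the other IPF lungs were at 2.79 to 4.58 FPKM and the sham lungs at 43.1 to 47.1 FPKM. The part of this in the ratios was not tested.

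**Figure D4:**
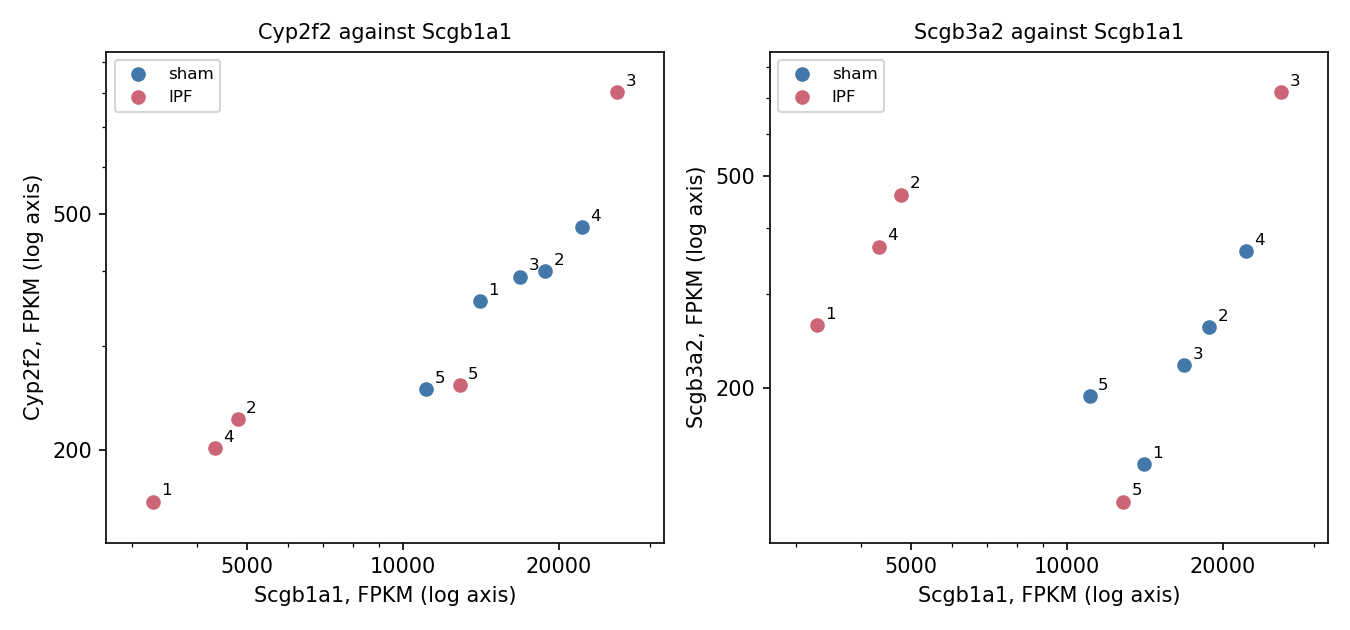
Cyp2f2 (left) and Scgb3a2 (right) against Scgb1a1 in each lung, in FPKM on log axes, with sham lungs in blue, IPF lungs in red and replicate numbers beside the points. Cyp2f2 follows Scgb1a1 across both groups, whereas IPF replicates 1, 2 and 4 hold 263 to 461 FPKM of Scgb3a2 at the lowest Scgb1a1 levels.

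Within the groups, Scgb1a1 and Cyp2f2 ranked the lungs alike. Both had the order 3, 5, 2, 4, 1 from highest to lowest in the IPF group and 4, 2, 3, 1, 5 in the sham group, and none of the other pairs shared its order in either group. Over the deviations of the 10 lungs from their group means, Pearson's r between these genes was 0.919 (permutation test, p = 0.00028, adjusted p = 0.0042 over 15 pairs) and Spearman's rho was 0.842 (permutation test, p = 0.00356, adjusted p = 0.0267). Without the pair of lungs farthest from the median of Scgb1a1 (IPF replicates 3 and 1), r was 0.747. The permutation tests shuffled deviations over all 10 lungs, IPF and sham together, although the members spread more in the IPF group. The p-values of the correlations, for this pair and the others, are therefore approximate.
Scgb1a1 and Scgb3a1 also varied together (r = 0.840, permutation test, p = 0.00237, adjusted p = 0.0178; rho = 0.842, p = 0.00339, adjusted p = 0.0267), with r = 0.716 without the same lungs. Muc5b and Cyp2f2 had r = 0.891 (permutation test, p = 0.00397, adjusted p = 0.0198) but rho = 0.758 with an adjusted p of 0.0724, and r was 0.578 without IPF replicate 3 and sham replicate 3, so this relation rested on those lungs. Scgb3a2 was not shown to follow Scgb1a1 (r = 0.256, permutation test, p = 0.470, adjusted p = 0.587; rho = 0.273, p = 0.448, adjusted p = 0.610), and r was -0.39 without IPF replicates 3 and 1. The remaining pairs had adjusted p-values above 0.05 for both coefficients.

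**Figure D5:**
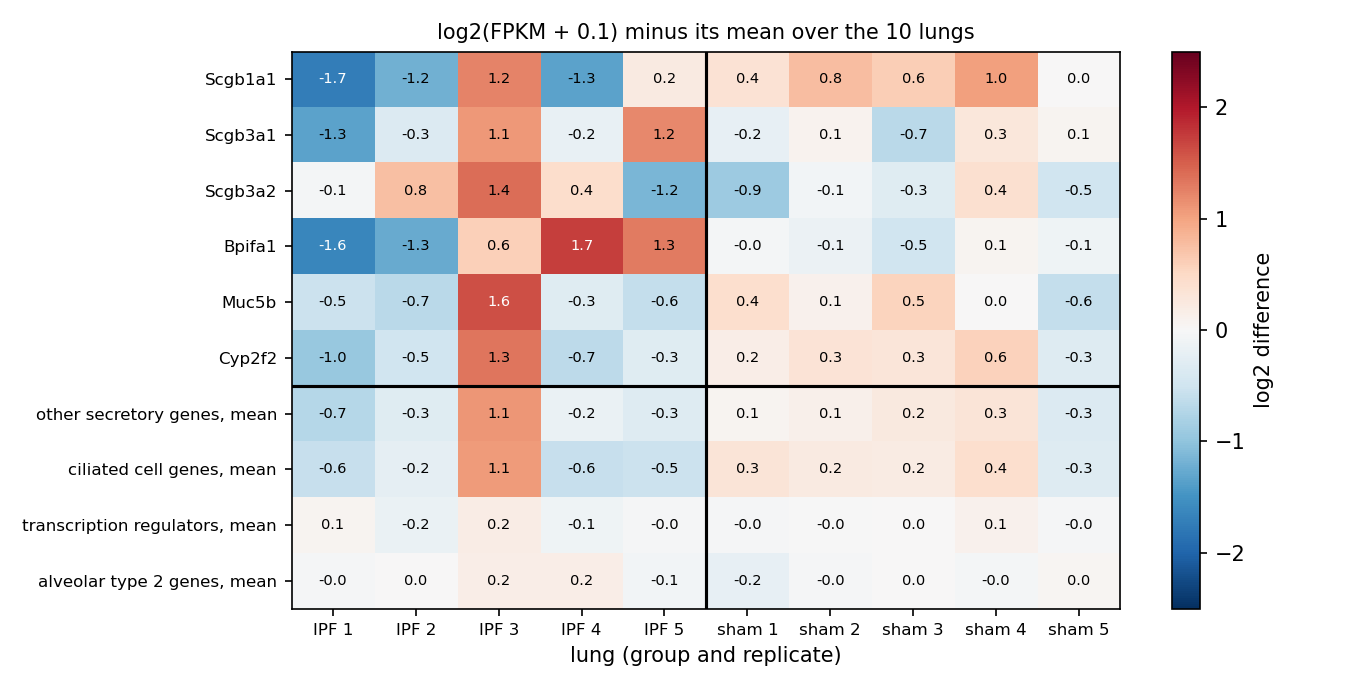
log2(FPKM + 0.1) minus its mean over the 10 lungs, for each member (above the line) and as the mean of 4 gene lists (below it), by lung. IPF replicate 3 is high for the members, the other secretory genes and the ciliated genes, and the transcription regulators and alveolar type 2 genes stay between -0.21 and 0.18 of their mean in all lungs.

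The genes most like Scgb1a1 were sought among 13441 genes with a mean of at least 1 FPKM, by Pearson's r of the deviations over the 10 lungs, given here as a description. Among the 5 with the highest r were Cdc14a (r = 0.969), a phosphatase, Gstm1 (0.956), a glutathione transferase, Cnn1 (0.956), the smooth muscle calponin, and Ces1e (0.954), a carboxylesterase. The gene most like Cyp2f2 was Slc16a11 (r = 0.988), that most like Scgb3a1 was Azgp1 (0.957), and that most like Scgb3a2 was Sprr1a (0.971), a gene of the cornified envelope. For Bpifa1 it was Mir7052 (0.918), which is at 0 in the same 2 IPF lungs where Bpifa1 had 1 and 2 reads, and for Muc5b it was Gm867 (0.971).

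Other genes of secretory airway cells were read from a list of 21, of which 20 could be tested. On it 1 gene rose, 2 fell and 17 did not pass the limma test (adjusted p under 0.05, where 3.71% of all genes tested rose and 2.14% fell), while 5 had an unadjusted p under 0.05 (19.5% of all genes) and limma voom called 3 (7.17% of all genes). The median log2 fold change was -0.12. Cbr2, a carbonyl reductase abundant in mouse lung, was at 955, 1089, 2005, 1136 and 1335 FPKM in the IPF lungs and at 1812, 2523, 2487, 2655 and 2143 FPKM in the sham lungs. Its log2 fold change was -0.87 (standard error 0.21, limma adjusted p = 0.0343), with IPF replicate 3 alone inside the sham range. Cyp2b10, another cytochrome P450, was at 77.9 to 134 FPKM in the IPF and 126 to 169 FPKM in the sham group, and its log2 fold change was -0.52 (adjusted p = 0.0489, limma).
Nupr1, a stress-induced regulator of transcription that is not confined to airway cells, rose in all 5 IPF lungs, from 20.7 to 24.4 FPKM in the sham group to 39.3 to 56.8 FPKM. Its log2 fold change was 1.02 (adjusted p = 0.000432, limma). Hp (haptoglobin), at a log2 fold change of 0.10 (adjusted p = 0.877, limma), and Selenbp1, with -0.24 (limma adjusted p = 0.455), were the most abundant of those that did not pass. The calls of Cbr2 and Cyp2b10 depend on single lungs and on the processing. The limma adjusted p of Cbr2 was 0.0608 to 0.0887 without IPF replicate 1, 2 or 4 or without sham replicate 2, 3, 4 or 5. That of Cyp2b10 was 0.0631 to 0.117 without any lung other than IPF replicate 5. With no filter on low values it was 0.150 for Cbr2 and 0.0857 for Cyp2b10, and for Cyp2b10 it was 0.0518 and 0.0505 with pseudocounts of 1 and 0.01, 0.0860 without the variance trend and 0.0628 with the replicate block.

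Enzymes that act on foreign compounds, the function of Cyp2f2, were followed on a list of 17 genes, which shares 5 genes with the list above. Of these, 3 fell, Cbr2, Cyp2b10 and Por, and 0 rose, where 2.14% of all genes tested fell and 3.71% rose. On this list 6 genes had an unadjusted limma p under 0.05 (19.5% of all genes), limma voom called 4 (7.17% of all genes), and the median log2 fold change was -0.30, where the median over all genes tested was 0.00. Por is the reductase that supplies electrons to microsomal cytochromes P450, among them Cyp2f2, and it is made in many cell types. It was at 38.4, 36.0, 57.0, 38.5 and 48.9 FPKM in the IPF lungs and at 77.5, 75.0, 78.7, 75.3 and 70.1 FPKM in the sham lungs. The groups did not overlap, and IPF replicate 3 was again the highest IPF lung. The log2 fold change of Por was -0.80 (standard error 0.12), with an adjusted p of 0.00299 from limma, and the exact permutation test gave 0.00794, the lowest p possible for 5 against 5 lungs, and without each lung in turn the limma adjusted p was at most 0.0107.

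Of 13 transcription regulators of airway secretory cells, 1 fell and 12 did not pass the limma test, where 2.14% of all genes tested fell. Of the 13, 5 had an unadjusted limma p under 0.05 (19.5% of all genes) and limma voom called 1 (7.17% of all genes). Cebpd, a C/EBP factor that glucocorticoids induce, was at 13.9 to 18.4 FPKM in IPF replicates 1 to 4, at 32.3 FPKM in IPF replicate 5 and at 26.3 to 41.4 FPKM in the sham lungs. All IPF lungs but replicate 5 thus lay below every sham lung. Its log2 fold change was -0.88 (standard error 0.21, limma adjusted p = 0.0319), and the limma adjusted p was 0.0556 to 0.0807 without any lung other than IPF replicate 5 or sham replicate 1, 0.0568 with no filter and 0.0623 without the variance trend. Nkx2-1, which lung epithelium needs for its identity, was at a log2 fold change of 0.06 (adjusted p = 0.707, limma). Cebpa was at 0.01 (adjusted p = 0.984), Cebpb at 0.24 (0.508) and Hes1, a target of Notch, at 0.30 (0.135), all from limma.

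Mucus and goblet cell genes included 0 of 9 with a limma adjusted p under 0.05 (1 with an unadjusted p under 0.05, and 0 by limma voom). The share of all genes tested was 5.85% by limma, 19.5% by unadjusted p and 7.17% by voom, so lists this short can hold 0 calls at the share of all genes, here and in the other cell types that follow. Muc1 and Slc12a2 were the most abundant, with log2 fold changes of 0.03 (limma adjusted p = 0.908) and 0.17 (0.305), followed by Cftr with 0.43 (0.187) and Muc4 with -0.41 (0.514). Ciliated cell genes, the neighbours of secretory cells, lay below 0 for 17 of 19, and their log2 fold changes had a median of -0.36. None of them had a limma adjusted p under 0.05, 1 had an unadjusted p under 0.05 and 1 was called by limma voom. Their summed level was 181 to 347 FPKM in the IPF and 197 to 288 FPKM in the sham group, and its part in the levels of the secretory genes was not tested.
Basal cell genes had 0 of 7 called and a summed level of 8.36 to 13.2 FPKM in the IPF and 11.4 to 13.3 FPKM in the sham group. Genes of airway cartilage, which would mark trachea or main bronchi in the sample, were near 0 in both groups, at 0.956 to 1.31 FPKM and 0.750 to 1.22 FPKM in sum over 11 genes. Neuroendocrine genes had 0 of 6 called, and tuft cell and ionocyte genes 0 of 2. Of the alveolar type 2 genes 1 of 11 rose, where 3.71% of all genes tested did, while 3 had an unadjusted limma p under 0.05 (19.5% of all genes) and limma voom called 2 (7.17% of all genes). The gene was Lpcat1, an enzyme of surfactant lipid synthesis, whose log2 fold change was 0.33 (adjusted p = 0.0163, limma, and 0.0609 after quantile normalization). Of the alveolar type 1 genes 0 of 10 were called. Over basal, neuroendocrine, tuft cell and ionocyte, cartilage and alveolar type 1 genes, 1, 2, 0, 0 and 3 had an unadjusted limma p under 0.05, and limma voom called 1, an alveolar type 1 gene.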

How the data were processed

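Per the paper's methods, the authors ran Fastp for trimming, HISAT2 for alignment and StringTie for gene quantification, and they deposited FPKM values for each gene and lung. The submitters' processing notes also list Bowtie 0.12.2 and the human build hg38, with no role given. The methods name GRCm39, but gene positions fit GRCm38 (on chromosome 1 no gene ends beyond 195323493). Reads were recovered because, after multiplying by gene length, nearly all values of each lung were whole multiples of a single step (within 0.02). Same-group lungs differed by more than sampling noise (chi-square per degree of freedom 4.49 to 34.3).

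Genes with a mean of at least 0.1 FPKM were tested with limma 3.58.1 (R 4.3.3, trended empirical Bayes) on log2(FPKM + 0.1), IPF against sham without covariates, with Benjamini-Hochberg adjustment over all of them. This script was tested on simulated data. Exact permutation tests were two-sided over 252 assignments of lungs (126 with 1 lung left out), correlations used 100000 resamples, and Python 3.11.15 with scipy 1.17.1 was used. Because the values are FPKM, no count model was the main test. The members and lists were chosen with earlier results of these data known. Named genes are the members, list genes with an adjusted p under 0.05, the up to 4 most abundant of 3 secretory lists, and the genes most like each member. One gene that this rule names is not reported here. Alternatives were other pseudocounts, filters, scalings, weights, voom on recovered reads, the replicate number as a block, and leaving out each lung. The counts with a larger spread in the IPF group, and their values without IPF replicate 3, were chosen after seeing the data. Reads of paralogs may be divided in counting, and strand use is not given in the sources used here.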

Additional observations from a re-analysis of the deposited data

Results flagged for a closer look

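Within a group of 5 lungs, a value was singled out when its gap to the next lung exceeded 0.71 of the group's range of log2(FPKM + 0.1). This is Dixon's limit, which chance alone gives in about 1 of 20 groups. Of 46 groups examined, 10 held such a value. The groups share the same lungs and hold genes that vary together, so this count cannot be set against that share. Among the members this held for Cyp2f2 in IPF replicate 3, at 801 FPKM where the other IPF lungs were at 164 to 258 FPKM. It also held for Muc5b in the same lung, at 0.481 FPKM where the others were at 0.020 to 0.0550 FPKM. The flag of Muc5b is not a result, since this value took the gene past the filter and the other values lie below the added 0.1 FPKM. Lpcat1 was set apart in sham replicate 1 (92.3 FPKM against 97.9 to 99.6 FPKM). The clock genes were set apart in IPF replicate 5, which was nearer to the sham lungs in Arntl (3.31 FPKM), Npas2 (1.29 FPKM), Nr1d2 (17.3 FPKM), Per3 (6.87 FPKM), Tef (39.1 FPKM) and Hlf (9.70 FPKM), and Per3 was also set apart in sham replicate 1 (17.3 FPKM).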

How the results depend on the processing

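Over the alternatives, Scgb1a1 stayed below 0 (log2 fold change -1.57 to -0.82, limma adjusted p 0.0746 to 0.668) and Scgb3a2 above 0 (0.27 to 0.91, 0.116 to 0.757), and neither passed 0.05. The count of members called stayed at 0 except without IPF replicate 3, where it was 1, Cyp2f2 (leaving out lungs: 0 to 1 members, log2 fold change of Cyp2f2 -0.81 to -0.24). Scgb3a1 was at -0.075 with array weights and ranged from -0.11 to 0.52 when lungs were left out, Bpifa1 ranged from -0.11 to 0.73, and Muc5b ranged from -0.73 (voom) to 0.00044 (a pseudocount of 1). Muc5b could not be tested without IPF replicate 3, and neither it nor Bpifa1 under a filter at 1 FPKM. The cause of these sign changes was not tested. The 0 of 15 pairs became 4 without IPF replicate 5 (leaving out lungs: 0 to 4). Genes called at both limits numbered 233, but 74 at a pseudocount of 1, 154 under the filter of 1 FPKM, which tests fewer genes, and 171 to 299 when lungs were left out. A pairing of same-numbered lungs was neither shown nor excluded (correlations of deviations -0.02 to 0.10, the best partner in 3 of 5). With the replicate block 202 genes were called, and among the members and the other genes named with a call it changed only that of Cyp2b10 (adjusted p = 0.0628 from limma). Depth limits Bpifa1 and Muc5b, with 1 to 37 and 5 to 136 reads per lung.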
